A study of Mus musculus with 8 samples.

Results

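The genes described here are 10 members of the cyclic AMP (cAMP) pathway in mouse natural killer (NK) cells, chosen by name for their place in the pathway, with earlier results of these data known, of 54838 gene identifiers in the count files. They are *Ptger4*, a receptor; *Adcy7*, an enzyme that makes cAMP; *Pde3b*, *Pde4a*, *Pde4b*, *Pde4d* and *Pde7a*, enzymes that break it down; *Prkar1a*, a subunit of the kinase that senses it; and *Creb1* and *Crem*, transcription factors at the end of the pathway. RNA came from spleen NK cells of 2 groups with 4 libraries each. The teNK libraries are from MMTV-PyMT mice, a line in which the mouse mammary tumour virus promoter drives polyoma middle T antigen in the mammary gland; the design calls these animals tumour-bearing. The hNK libraries are from healthy WT FVB/n animals. In both groups the cells were sorted as CD45+, CD49b+ and CD3-, then held for 12 to 16 h in medium with cytokines that the labels do not name. The sources used here do not give age, sex, the strain on which MMTV-PyMT was kept or how many animals made a library. The p-values therefore cover only differences among these libraries, and part of that spread may be technical.

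cAMP is a small messenger made from ATP by adenylyl cyclases when receptors coupled to the stimulatory G protein are occupied. It releases the catalytic subunits of protein kinase A (PKA) from their regulatory subunits, and PKA phosphorylates CREB, which then recruits coactivators to genes that carry cAMP response elements. Phosphodiesterases (PDEs) hydrolyse cAMP and end the signal. In NK cells, prostaglandin E2 and adenosine raise cAMP through such receptors, a route known for restraining killing and cytokine release.

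Reads on genes numbered 13111043 to 16209895 in teNK and 5202131 to 12419324 in hNK libraries. For a gene at an equal level, counting error is accordingly larger in hNK as a group. Counting error also depends on the reads of each gene, and *Pde4d* had 607 reads in teNK and 2181 in hNK. Levels are given as CPM, the counts scaled by library size with TMM factors. The NK genes *Ncr1*, *Klrb1c*, *Eomes* and *Tbx21* were well above the detection floor in every library, and of 12 NK markers 10 were called higher in teNK and 1, *Eomes*, lower. Markers of other cells were also present. The summed level of 10 platelet and megakaryocyte markers was 151 to 259 CPM in teNK and 18.0 to 41.9 CPM in hNK, and 9 of the 9 tested were called higher. The sum of 10 B cell markers was 141 to 174 CPM in teNK and 88.0 to 130.3 CPM in hNK. Most of it was *Ighm*, which was not called, and the other 9 were called higher. T cell coreceptor genes were near 0, *Cd4* with 2 reads in teNK and 2 in hNK and *Cd8a* with 1 and 0. Genes of CD3 were read, *Cd3g* with 1291 reads in teNK and 660 in hNK and *Cd3e* with 80 and 71, both not called. *Cd3d* had 275 and 74 reads and was called higher, and *Trbc2* had 877 and 993 and was called lower. Of 10 T cell markers 6 were tested, 1 called higher and 1 lower. The sum of the 10, mostly *Trbc1*, was 259 to 275 CPM in teNK and 271 to 312 CPM in hNK. Summed markers of monocytes, macrophages and neutrophils were low, at 12.8 to 20.9 CPM in teNK and 4.05 to 6.07 CPM in hNK, and higher in teNK. Of these 10 markers 3 were tested, and 2 were called higher. *Lyz2*, 1 of them, had 393 reads in teNK and 19 in hNK. Untested *S100a8* and *S100a9* had 68 and 82 reads in teNK and 0 in hNK, and *Ly6g* had no read in either group. The part of these other cells in the results below was not tested. In bulk RNA, fewer cells of a type and less RNA per cell cannot be told apart.

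All 10 members passed the filter on low counts. In teNK, 5 of them rose (*Adcy7*, *Pde7a*, *Ptger4*, *Pde4a* and *Creb1*) and 2 fell (*Pde4d* and *Pde4b*), while *Crem*, *Pde3b* and *Prkar1a* were not called (edgeR quasi-likelihood test, Benjamini-Hochberg adjusted p under 0.05 over 13903 genes). Among all genes tested, 51.9% were called, 26.4% higher and 25.6% lower in teNK, a background beside which 7 calls among 10 genes cannot be read as particular to the pathway. With library totals in place of TMM the split of the members was 3 higher and 4 lower, and that of all genes 2709 higher and 5114 lower, against 3665 and 3557 with TMM. For 7 members no teNK value lay within the hNK range or the reverse, which held for 46.5% of all genes tested. The median log2 fold change (teNK minus hNK) was 0.17 over the members and -0.02 over all genes tested. The plot of members by library shows every value.

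**Figure D1:**
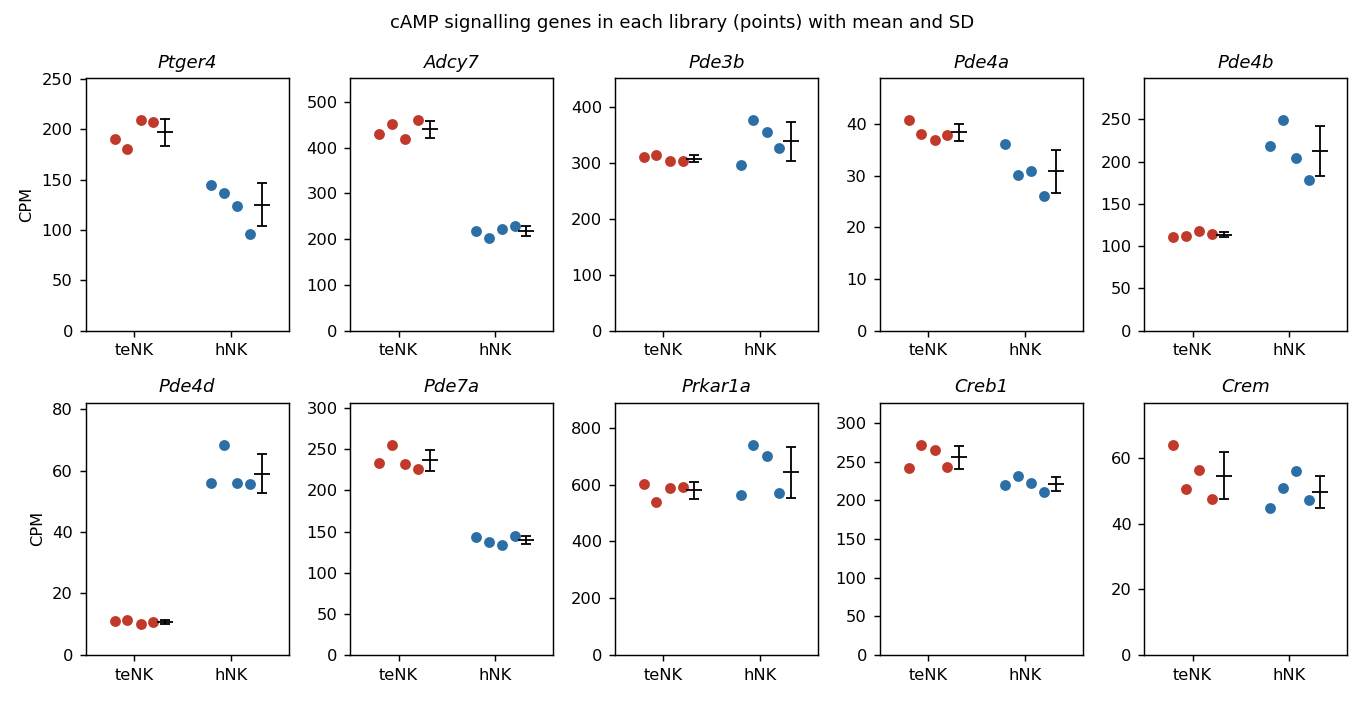
Level in CPM of each of the 10 cAMP pathway genes, 1 panel per gene with its own axis from 0; each point is 1 library (4 teNK in red, 4 hNK in blue) and the bar beside them is the mean with its SD. *Pde4d* lies between 9.96 and 11.2 CPM in teNK and between 55.5 and 68.4 CPM in hNK, while the points of *Crem*, *Pde3b* and *Prkar1a* overlap between the groups.

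At the top of the pathway, *Ptger4* encodes EP4, a stimulatory receptor for prostaglandin E2. Its level was 190.3, 180.5, 209 and 208 CPM in teNK replicates 1 to 4 and 144, 137, 123 and 95.9 CPM in hNK replicates 1 to 4. Every teNK library lay above every hNK library, and hNK replicate 4 was the lowest. *Ptger4* (ENSMUSG00000039942, chromosome 15, 5206661 to 5244187) averaged 197 ± 13.8 CPM in teNK and 125 ± 21.3 CPM in hNK (SD, n = 4 each). The log2 fold change was 0.64 ± 0.10 (± SE, edgeR adjusted p = 3.57e-05), a 1.56-fold difference. Its exons overlap 82 bases of *Ttc33* and 1015 bases of the pseudogene *Gm15937* on the opposite strand. *Ttc33* had 1572 reads in teNK and 1110 in hNK and *Gm15937* 73 and 46, beside 11051 and 4738 reads of *Ptger4*. The labels do not state whether counting used strand, so reads in such overlaps cannot be assigned with certainty.

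Other receptors that raise or lower cAMP were taken from a list of 23 genes. Of the 10 tested besides *Ptger4*, 6 were called higher and 2 lower in teNK, with a median log2 fold change of 0.69. Among all genes tested, 26.4% were called higher and 25.6% lower. Of the 2 receptor genes called lower, 1 met the count filter in hNK alone, so its direction was largely set by entering the test. The sphingosine 1-phosphate receptor genes, whose products signal mainly through inhibitory G proteins, moved apart. *S1pr5* rose to 339 ± 17.1 CPM in teNK, against 36.5 ± 4.98 CPM in hNK, and *S1pr1* fell to 19.1 ± 1.23 CPM in teNK, against 45.1 ± 5.65 CPM in hNK. Another 2 receptors, of the prostaglandin and adenosine routes, were named after their values were seen. *Adora2a*, a stimulatory adenosine receptor, was at 94.3 ± 4.12 CPM in teNK and 46.5 ± 5.67 CPM in hNK (log2 fold change 1.02 ± 0.08, adjusted p = 1.72e-08 by edgeR). *Ptger2*, which encodes the other stimulatory prostaglandin E2 receptor, was low at 4.30 ± 0.624 CPM in teNK and 4.80 ± 1.02 CPM in hNK and was not called (adjusted p = 0.554 by edgeR).

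G protein alpha subunits showed a single call among 5 tested, where 51.9% of all genes tested were called. *Gnas*, the stimulatory subunit that couples these receptors to adenylyl cyclase, was chosen after its values were seen; it was at 754 ± 42.9 CPM in teNK and 800.3 ± 55.2 CPM in hNK and was not called (log2 fold change -0.09 ± 0.07, adjusted p = 0.328 by edgeR). *Gnaz*, an inhibitory subunit that platelets also express, had 178 reads in teNK and 14 in hNK and was called higher (log2 fold change 3.00 ± 0.33); it met the count filter in teNK alone.

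*Adcy7* encodes adenylyl cyclase 7, an isoform prominent in cells of the blood. The 4 teNK libraries held 429, 452, 419 and 459.7 CPM and the 4 hNK libraries 219, 202, 222 and 229 CPM. The groups were far apart and each was tight. *Adcy7* (ENSMUSG00000031659, chromosome 8, 88272403 to 88329962) averaged 440.0 ± 19.1 CPM in teNK and 218 ± 11.6 CPM in hNK (SD, n = 4 each), a 2.02-fold difference (log2 fold change 1.02 ± 0.06, adjusted p = 1.07e-09 by edgeR). Per kb of exon it was the most abundant of the adenylyl cyclase transcripts in both groups. Of the 10 cyclase genes in the list, 7 did not pass the filter on low counts. The other tested ones also rose, *Adcy3* to 39.1 ± 2.68 CPM in teNK, against 27.4 ± 2.87 CPM in hNK, and *Adcy9* to 1.90 ± 0.187 CPM in teNK, against 0.889 ± 0.416 CPM in hNK, where it did not meet the count filter.

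The promoter windows of genes that changed most, and of the member whose windows held a full cAMP response element, are printed here because CREB binds the letters TGACGTCA or the shorter core TGACG. RefSeq windows on GRCm38.p6, from 250 bases before to 50 after a gene's start, were examined for 7 of the 10 members, 19 windows in all. Windows of *Crem*, *Pde3b* and *Pde7a* were not examined, so whether these genes hold either motif was not tested. Capitals mark TGACGTCA and TGACG read on either strand (the reverse of the core reads CGTCA); each full element contains a core on both strands.
*Pde4d*, chr13:108653927-108654226, plus strand: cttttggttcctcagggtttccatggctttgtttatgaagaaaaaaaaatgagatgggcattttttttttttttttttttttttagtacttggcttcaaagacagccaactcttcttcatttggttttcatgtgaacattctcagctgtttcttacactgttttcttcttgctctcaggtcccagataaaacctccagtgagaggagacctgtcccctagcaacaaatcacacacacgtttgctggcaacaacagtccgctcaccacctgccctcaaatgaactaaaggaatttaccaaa
*Pde4b*, chr4:102421305-102421604, plus strand: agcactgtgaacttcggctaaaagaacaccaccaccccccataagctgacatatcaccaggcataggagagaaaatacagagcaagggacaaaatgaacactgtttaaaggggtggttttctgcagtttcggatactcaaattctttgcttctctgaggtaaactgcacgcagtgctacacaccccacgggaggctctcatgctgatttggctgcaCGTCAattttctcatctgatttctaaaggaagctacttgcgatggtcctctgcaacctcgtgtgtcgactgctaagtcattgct
*Adcy7*, chr8:88282742-88283041, plus strand: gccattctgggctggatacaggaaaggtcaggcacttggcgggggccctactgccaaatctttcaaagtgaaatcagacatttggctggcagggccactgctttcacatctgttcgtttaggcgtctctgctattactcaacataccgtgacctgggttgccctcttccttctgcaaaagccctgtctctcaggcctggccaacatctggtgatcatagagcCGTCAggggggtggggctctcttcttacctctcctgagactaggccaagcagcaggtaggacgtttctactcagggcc
*Prkar1a*, chr11:109650699-109650998, plus strand: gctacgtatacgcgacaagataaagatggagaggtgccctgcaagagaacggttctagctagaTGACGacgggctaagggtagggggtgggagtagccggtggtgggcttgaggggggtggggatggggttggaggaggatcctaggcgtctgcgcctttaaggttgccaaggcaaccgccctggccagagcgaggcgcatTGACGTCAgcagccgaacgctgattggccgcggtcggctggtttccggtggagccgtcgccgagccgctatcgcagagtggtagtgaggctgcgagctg
The full element was in 2 of the 19 member windows, both of *Prkar1a*, and these overlapping windows share the same letters, which start at 109650900 on chromosome 11, 49 bases before the start used in the printed window. Of all 32851 promoter windows in the table, 1.79% held the full element. The core on either strand was in 6 of the 19 windows and in 20.8% of all windows. In the printed window of *Pde4b* the core began 34 bases before the start and in that of *Adcy7* 28 bases before it, and the other windows of these genes did not hold these letters. The *Pde4d* window held neither motif. A match of letters is a description of the window only.

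The phosphodiesterases split. *Pde4d* and *Pde4b* fell in teNK, *Pde7a* and *Pde4a* rose, and *Pde3b* was not called. PDE4 enzymes are specific for cAMP and are the targets of drugs such as rolipram. They limit cAMP in many immune cells, and transcription of *Pde4b* and *Pde4d* is itself known to be raised by cAMP in other cells.

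*Pde4d* showed the largest change of the members. Its level was 10.99, 11.2, 9.96 and 10.6 CPM in teNK replicates 1 to 4 and 56.0, 68.4, 55.9 and 55.5 CPM in hNK replicates 1 to 4. The groups were separated by a wide gap, with hNK replicate 2 above the other hNK libraries. The mean was 10.7 ± 0.556 CPM in teNK and 58.9 ± 6.29 CPM in hNK (SD, n = 4 each), 5.52-fold lower in teNK (log2 fold change -2.46 ± 0.09, adjusted p = 2.18e-12 by edgeR). *Pde4d* (ENSMUSG00000021699, chromosome 13, 108449948 to 109953461) is a long gene with several promoters, and the counts do not separate its isoforms. Genes annotated inside it share no exonic base with it.

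*Pde4b* (ENSMUSG00000028525, chromosome 4, 102087543 to 102607259) was at 111, 111, 117 and 115 CPM in the teNK libraries and at 218, 249, 204 and 178 CPM in the hNK libraries. All teNK values lay below all hNK values, and the hNK values were the more spread. The mean was 114 ± 3.02 CPM in teNK and 212 ± 29.3 CPM in hNK, 1.88-fold lower in teNK (log2 fold change -0.91 ± 0.08, adjusted p = 1.06e-07 by edgeR). *Pde4a* (ENSMUSG00000032177, chromosome 9, 21165714 to 21213248) had 40.7, 38.0, 37.0 and 38.0 CPM in teNK and 36.2, 30.3, 31.0 and 26.0 CPM in hNK. The groups were close, with the lowest teNK library just above the highest hNK library. The log2 fold change of *Pde4a* was 0.30 ± 0.09 (adjusted p = 0.00989 by edgeR), and with library totals in place of TMM it was 0.17 and no longer called (adjusted p = 0.118).

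*Pde7a* encodes a cAMP-specific enzyme of lymphocytes that PDE4 inhibitors do not block. Its level was 233, 255, 232 and 226 CPM in the teNK libraries and 143, 137, 133 and 145 CPM in the hNK libraries. The groups did not overlap and each was narrow. *Pde7a* (ENSMUSG00000069094, chromosome 3, 19223108 to 19311322) averaged 237 ± 12.8 CPM in teNK and 139.6 ± 5.19 CPM in hNK, a 1.70-fold difference (log2 fold change 0.76 ± 0.06, adjusted p = 2.45e-08 by edgeR). *Pde3b*, an enzyme inhibited by cyclic GMP, was at 310.5, 314, 303 and 302 CPM in teNK and at 296, 375, 354 and 327 CPM in hNK. Its groups overlapped because hNK replicate 1 lay below every teNK library. *Pde3b* (ENSMUSG00000030671, chromosome 7, 114415281 to 114539251) was not called (log2 fold change -0.14 ± 0.07, 95% interval -0.29 to 0.014, adjusted p = 0.119 by edgeR). Without hNK replicate 1 it was called lower (-0.20, adjusted p = 0.0116 by edgeR), and it was also called lower with upper quartile scaling (-0.17, adjusted p = 0.0455) and with library totals (-0.27, adjusted p = 0.00321).

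**Figure D2:**
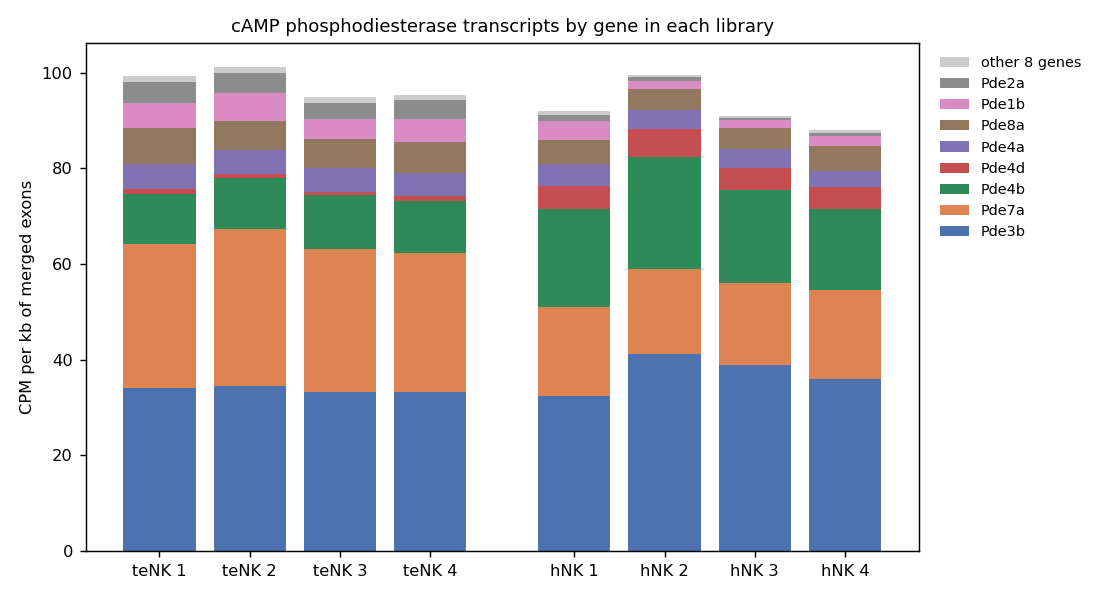
Summed level of 16 cAMP phosphodiesterase genes in each library, in CPM per kb of merged exons, stacked by gene with the 8 least abundant genes together; teNK libraries are on the left and hNK libraries on the right. The totals overlap at 94.8 to 101 in teNK and 88.0 to 99.6 in hNK, while the band of *Pde7a* is wider and the bands of *Pde4b* and *Pde4d* are narrower in every teNK library.

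Read per length, the makeup of phosphodiesterase transcripts differed more than their sum. This summary was chosen after the values were seen and is a description with no test. Levels per kb of merged exons, summed over 16 genes for cAMP-hydrolysing enzymes, were 97.6 ± 3.12 CPM per kb in teNK and 92.6 ± 4.94 CPM per kb in hNK (SD, n = 4 each), and the groups overlapped. The PDE4 genes made up 16.4% to 17.8% of that sum in teNK and 28.4% to 33.4% in hNK. *Pde7a* made up 30.3% to 32.6% in teNK and 17.8% to 21.2% in hNK. *Pde4d* alone was at 0.875% to 0.929% in teNK and 5.08% to 5.72% in hNK. Within each library, *Pde7a* was 2.69 to 3.13 times as abundant per kb as *Pde4b* in teNK and 0.752 to 1.10 times in hNK. RNA levels say nothing of enzyme activity.

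Of the 11 other cAMP phosphodiesterase genes, 7 were tested. Of these, *Pde3a*, *Pde7b* and *Pde10a* met the count filter in the teNK libraries alone, so their direction was largely set by entering the test and they are given as values only. The other 4 met it in both groups and were called higher in teNK, where 25.9% of all genes that met it in both groups were called higher. This list too was chosen with earlier results of these data known. *Pde7b* had 75 reads in teNK and 7 in hNK. *Pde2a*, an enzyme stimulated by cyclic GMP, had 26.4, 25.5, 19.8 and 23.8 CPM in teNK and 7.82, 5.16, 1.98 and 4.70 CPM in hNK (log2 fold change 2.18 ± 0.21). *Pde3a*, the cyclic GMP-inhibited enzyme best known from heart and platelets, had 147 reads in teNK and 2 in hNK. After division by the summed TMM-scaled depth of each group that is 47.1 times as many, a ratio that rests on those 2 hNK reads. *Pde10a* had 97 and 8 reads, a depth-scaled ratio of 7.78. Both ratios describe pooled reads and are no test of direction. The summed platelet markers, also higher in teNK, were 255, 240.3, 259 and 151 CPM in teNK replicates 1 to 4. Within teNK these genes did not follow that sum alike. *Pde3a* was lowest in replicate 4 at 1.61 CPM, where the sum was lowest too. *Pde10a* was lowest in replicate 2 at 1.27 CPM, with 1.83 CPM in replicate 4, and *Pde2a* was lowest in replicate 3, where the sum was highest. The part of platelet RNA in these values was not tested.

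PKA is held inactive by regulatory subunits, and *Prkar1a* encodes the type I alpha form. It was the most abundant member per length in both groups. Its level was 602, 538, 588 and 591 CPM in teNK and 564, 740.3, 701 and 572 CPM in hNK. The teNK libraries lay inside or just below the range of the hNK libraries, which fell into a low and a high pair. *Prkar1a* (ENSMUSG00000020612, chromosome 11, 109649405 to 109669656) averaged 579.8 ± 28.7 CPM in teNK and 644 ± 89.8 CPM in hNK and was not called (log2 fold change -0.15 ± 0.09, 95% interval -0.34 to 0.032, adjusted p = 0.155 by edgeR). It was called lower without hNK replicate 1 (-0.21, adjusted p = 0.0343 by edgeR) and with library totals (-0.28, adjusted p = 0.00691).

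Other PKA genes did not move one way. Of 6 tested, 2 were called higher, 2 lower and 2 not called, with a median log2 fold change of 0.16. The shares over all genes tested were 26.4% higher and 25.6% lower. *Prkacb*, a catalytic subunit gene, fell to 447 ± 23.9 CPM in teNK, against 633 ± 55.0 CPM in hNK (log2 fold change -0.50 ± 0.07, adjusted p = 2.15e-05 by edgeR). *Prkar2b*, a type II regulatory subunit gene, had 37.1, 30.7, 34.1 and 21.3 CPM in teNK and 8.23, 8.34, 7.42 and 7.05 CPM in hNK (log2 fold change 1.97 ± 0.16). Its lowest teNK value was in replicate 4, the teNK library with the lowest platelet sum, and the part of platelet RNA in it was not tested. *Pkig*, an inhibitor peptide of PKA, was low at 4.54 ± 0.886 CPM in teNK and 2.56 ± 0.663 CPM in hNK and was called higher (log2 fold change 0.89 ± 0.23). Per kb, regulatory subunit transcripts outnumbered catalytic ones 2.08 to 2.39 times in teNK and 1.63 to 1.85 times in hNK, a ratio chosen after the values were seen.

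PKA anchoring proteins and the PKA-independent branch were read from the same fit. Of 9 A-kinase anchoring protein genes tested, 4 were called higher and 2 lower, where 51.9% of all genes tested were called in either direction. *Akap13*, the most abundant of them per kb of exon in both groups, fell to 594 ± 14.9 CPM in teNK, against 990.6 ± 93.0 CPM in hNK (log2 fold change -0.74 ± 0.07, adjusted p = 3.35e-07 by edgeR). *Akap8l* and *Akap5* rose by 0.55 ± 0.11 and 0.93 ± 0.29 on the log2 scale, *Akap5* having met the count filter in teNK alone. The EPAC exchange factor genes *Rapgef3* and *Rapgef4*, whose products bind cAMP and switch on RAP1, had 2 and 56 reads in teNK and 2 and 4 in hNK and did not pass the filter; they were named after their values were seen. *Rap1b*, which encodes the GTPase they act on, rose to 1484 ± 81.0 CPM in teNK, against 471 ± 81.2 CPM in hNK (log2 fold change 1.66 ± 0.10), and *Rap1a* to 189 ± 7.33 CPM in teNK, against 141 ± 14.3 CPM in hNK.

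**Figure D3:**
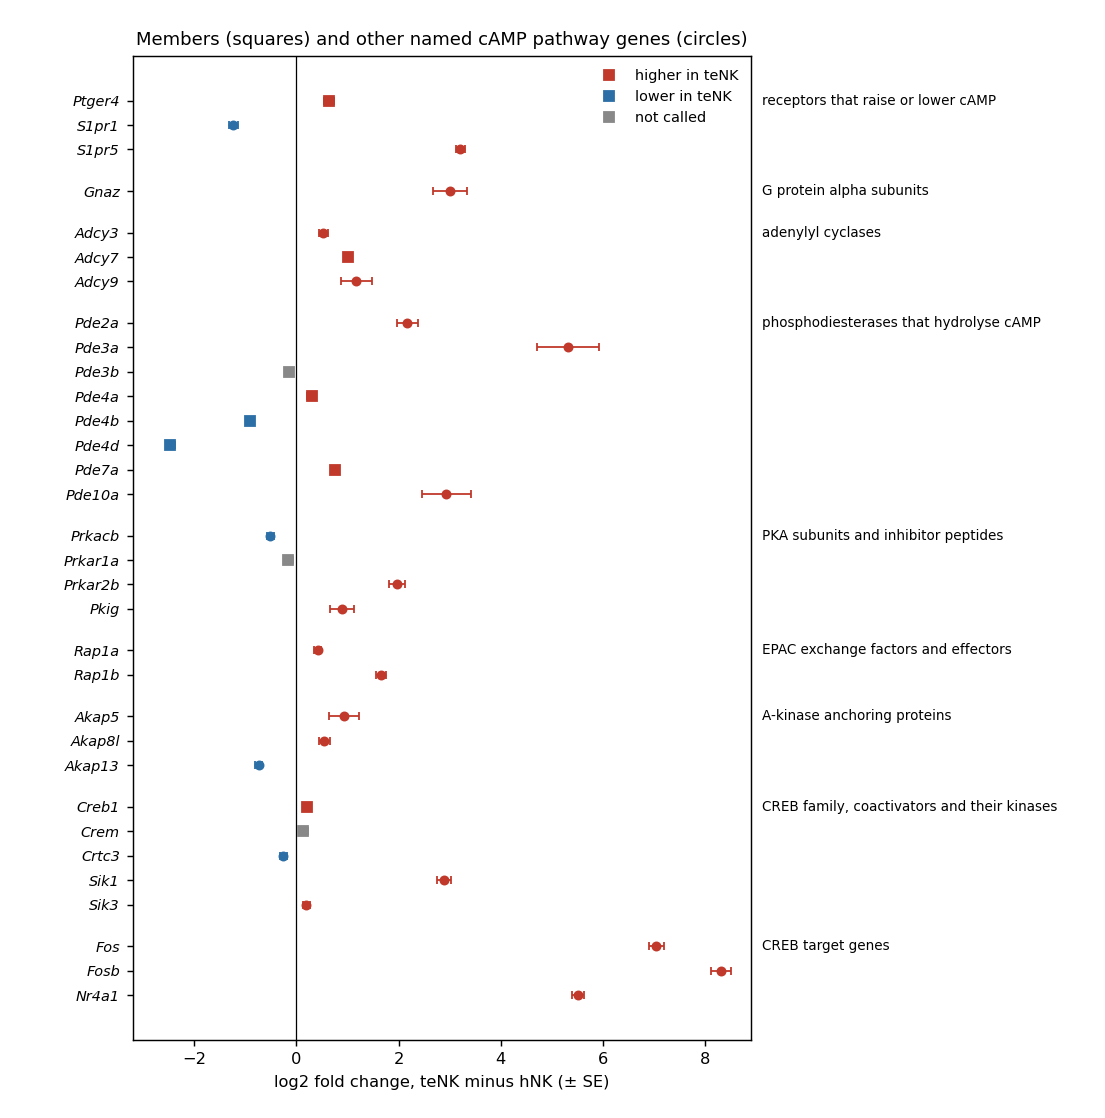
Log2 fold change (teNK minus hNK, with SE) of the 10 members as squares and of other named cAMP pathway genes as circles, grouped by role; red is called higher, blue called lower and grey not called in teNK. The members lie between -2.46 for *Pde4d* and 1.02 for *Adcy7*, while *Fosb*, *Fos* and *Nr4a1* at the bottom lie at 5.51 or above.

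At the end of the pathway, *Creb1* encodes CREB, which PKA phosphorylates. Its level was 242, 272, 265 and 244 CPM in teNK and 219, 232, 223 and 211 CPM in hNK. The groups did not overlap but lay close together. *Creb1* (ENSMUSG00000025958, chromosome 1, 64532645 to 64604548) averaged 256 ± 15.0 CPM in teNK and 221 ± 8.61 CPM in hNK, a 1.15-fold difference (log2 fold change 0.21 ± 0.06, adjusted p = 0.0105 by edgeR). With library totals in place of TMM it was 0.077 and not called (adjusted p = 0.301), a setting that moves the median of all genes to -0.15.

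*Crem* encodes the related factor CREM and, from an internal promoter, the short repressor ICER, which cAMP induces; gene counts do not separate the forms. Its level was 64.1, 50.6, 56.4 and 47.7 CPM in teNK and 44.7, 51.0, 56.1 and 47.3 CPM in hNK. The groups overlapped over most of their range, with teNK replicate 1 the highest. *Crem* (ENSMUSG00000063889, chromosome 18, 3266048 to 3337748) averaged 54.7 ± 7.24 CPM in teNK and 49.8 ± 4.92 CPM in hNK and was not called (log2 fold change 0.14 ± 0.09, 95% interval -0.06 to 0.34, adjusted p = 0.226 by edgeR). The noncoding gene *Gm6225* shares 472 exonic bases with it on the opposite strand and had 1956 reads in teNK and 428 in hNK, beside 3097 and 1782 reads of *Crem*, so the count of *Crem* is uncertain where they overlap.

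The other genes of the CREB machinery were read from the same fit. Of 9 tested besides *Creb1* and *Crem*, 2 were called higher, 1 lower and 6 not called, with a median log2 fold change of 0.04. Over all 13903 genes tested, 26.4% were called higher, 25.6% lower and 6681 genes were not called. With so few genes, these counts cannot be read as particular to the CREB machinery. *Sik1*, a kinase that keeps CREB coactivators out of the nucleus and that CREB itself induces, rose to 85.3 ± 16.3 CPM in teNK, against 11.5 ± 1.71 CPM in hNK (log2 fold change 2.88 ± 0.13, adjusted p = 2.66e-11 by edgeR). Its relative *Sik3* rose by 0.19 ± 0.07 on the log2 scale. *Crtc3*, one of the coactivator genes, was at 59.6 ± 2.53 CPM in teNK and 70.6 ± 6.84 CPM in hNK (log2 fold change -0.25 ± 0.07, adjusted p = 0.00874 by edgeR).

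Genes known as CREB targets were read from a list of 16, which also holds *Crem*, *Pde4b* and *Pde4d*. Of the 12 tested that are not members, 11 were called higher in teNK and 1 lower, with a median log2 fold change of 3.11. Of the 11 that met the count filter in both groups, 10 were called higher and 1 lower. Among all genes that met it in both groups, 25.9% were called higher. The list was chosen with earlier results of these data known. *Fos*, *Fosb* and *Nr4a1*, early response genes that many signals besides cAMP induce, had log2 fold changes of 7.04 ± 0.15, 8.31 ± 0.19 and 5.51 ± 0.12; *Fosb* met the count filter in teNK alone. *Ppargc1a*, a coactivator gene of mitochondrial metabolism and the target called lower, named after its values were seen, was at 7.41 ± 1.65 CPM in teNK and 33.7 ± 3.55 CPM in hNK (log2 fold change -2.19 ± 0.13). Among the members in that list, *Pde4b* and *Pde4d* fell and *Crem* was not called. With the members included, 11 genes of the list were called higher, 3 lower and 1 was not called.

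**Figure D4:**
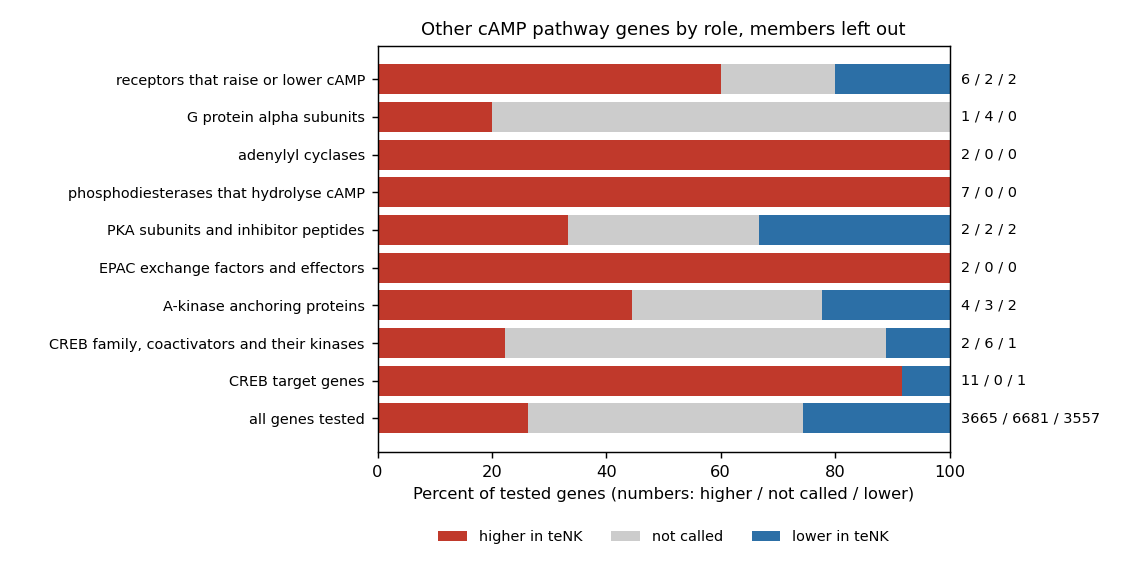
Percent of tested genes called higher in teNK (red), not called (grey) or called lower (blue) in each role list of the cAMP pathway with the 10 members left out, and over all 13903 genes tested in the bottom bar; the numbers give the genes in each class. The phosphodiesterase bar holds 3 genes, and the bars of G protein subunits, cyclases, anchoring proteins and CREB targets 1 each, that met the count filter in teNK alone. The receptor bar holds 1 gene that met it in hNK alone.

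Over all role lists together, 61 genes that are not members were tested, and 36 were called higher and 8 lower in teNK, of which 7 of the higher ones met the count filter in teNK alone and 1 of the lower ones in hNK alone. Of the 52 that met it in both groups, 29 were called higher and 7 lower. Leaving out the CREB target list, 20 of 42 such genes were called higher and 6 lower. Of all genes that met the filter in both groups, 25.9% were called higher. The plot of calls by role shows each list.

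Compared per length, the order of the members changed between the groups. In teNK, *Prkar1a* (134 ± 6.64 CPM per kb) was followed by *Adcy7* (65.4 ± 2.83), *Pde3b* (33.7 ± 0.626), *Pde7a* (30.6 ± 1.65), *Ptger4* (29.6 ± 2.08), *Creb1* (18.6 ± 1.09), *Pde4b* (10.8 ± 0.286), *Crem* (9.28 ± 1.23), *Pde4a* (5.02 ± 0.212) and *Pde4d* (0.892 ± 0.0463). Neighbours whose libraries overlapped in teNK were *Pde7a* and *Ptger4*, and *Pde4b* and *Crem*. In hNK, *Prkar1a* (149 ± 20.8 CPM per kb) was followed by *Pde3b* (37.1 ± 3.77), *Adcy7* (32.4 ± 1.72), *Pde4b* (20.1 ± 2.77), *Ptger4* (18.8 ± 3.20), *Pde7a* (18.0 ± 0.670), *Creb1* (16.1 ± 0.626), *Crem* (8.44 ± 0.834), *Pde4d* (4.91 ± 0.524) and *Pde4a* (4.03 ± 0.544). Overlapping neighbours in hNK were *Pde3b* and *Adcy7*, *Pde4b* and *Ptger4*, *Ptger4* and *Pde7a*, and *Pde4d* and *Pde4a*. *Pde4b* thus stood at place 7 in teNK and place 4 in hNK, and *Pde7a* at place 4 in teNK and place 6 in hNK.

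The genes whose pattern over the 8 libraries was most like that of *Pde4d*, measured as the root mean square distance between log2 CPM centred on each gene's mean, were *Cpd* (0.064), *Acpp* (0.11) and *Rbpj* (0.14). *Cpd*, which encodes carboxypeptidase D, averaged 27.5 ± 1.75 CPM in teNK and 150.1 ± 13.1 CPM in hNK. *Acpp*, an acid phosphatase gene, was at 24.9 ± 1.05 CPM in teNK and 128 ± 7.56 CPM in hNK, and *Rbpj*, the DNA-binding factor of Notch signalling, at 15.4 ± 1.98 CPM in teNK and 88.9 ± 7.54 CPM in hNK. The measure mostly follows the difference between the groups.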

How the data were processed

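RNA of sorted spleen NK cells, cultured before extraction, went into TruSeq Stranded mRNA libraries, as the labels' protocols state. The authors deposited raw read counts per Ensembl gene, 1 file per library, with no normalization. The submitters' processing notes name HISAT2 2.1.0, SAMtools, HTSeq and GRCm38, and the annotation release and strand setting are not given in the sources used here. The 5 summary lines stayed out of library sizes and tests; reads in no gene were 32.3% to 41.2% and ambiguous reads 1.52% to 2.07% of a library. The teNK descriptions mention runs of 1 library in several lanes, which the hNK descriptions lack, so lane layout and group cannot be told apart. Symbols, positions and merged exon lengths came from GENCODE M21 (GRCm38), which matched 54723 of 54838 identifiers; promoter sequences came from RefSeq (GRCm38.p6).

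Counts were filtered with filterByExpr (13903 genes kept; a gene met the filter in 1 group alone when all 4 libraries of that group, and not all 4 of the other, had at least 0.783 unscaled CPM), scaled with TMM and tested on the group term with edgeR 4.0.16 in R 4.3.3 (quasi-likelihood F test, Benjamini-Hochberg over all genes tested, called at an adjusted p under 0.05). The SE is the log2 fold change over the square root of F. CPM means and SDs are over 4 libraries. Ratios of pooled reads are scaled by the summed TMM-scaled depth of each group and are given without a test. No pair of libraries was identical; chi-square per degree of freedom between libraries of a group was 3.51 to 11.3. Alternatives were other scalings, DESeq2 1.42.0, no filter, thinned counts, each library left out and a replicate block. The code was tested on simulated data, where 13 of 158 calls were false. It recovered 38% of the genes changed 1.25-fold and 88% of those changed 2-fold. Members, gene lists and tests were chosen with earlier results of these data known. Named genes were all members, up to 3 called genes per role list by smallest adjusted p, and the 3 genes most like the member that changed most; 1 gene that this rule names is not reported here. Any other pathway gene named was chosen after its values were seen.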

Additional observations from a re-analysis of the deposited data

Results flagged for a closer look

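A library far from the other 3 of its group was found in 4 of 66 gene and group combinations examined among the named genes (Dixon's test, 95% level), where chance gives about 1 in 20. *Pde4d* in hNK replicate 2 was at 68.4 CPM, against 55.5 to 56.0 CPM in the other hNK libraries, and all 4 values lay above every teNK library. *Pde3a* in hNK was at 0.166 CPM in replicate 1, from 2 reads, and had no read in the others; with 3 values at 0 any read meets the rule, so this case says nothing of a library that stands apart. *Rap1a* in teNK replicate 2 was at 178 CPM, against 192 to 193 CPM in the other teNK libraries. *Crtc3* in hNK replicate 1 was at 80.8 CPM, against 66.6 to 68.1 CPM in the other hNK libraries.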

How the results depend on the processing

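Across 15 alternatives (8 leave out a library, 7 change scaling, tool, filter, block or depth), 230 of 240 recomputed values were classed as unchanged. These values hold counts of called genes as well as log2 fold changes of the members. A count could be classed so though it moved, as did genes higher in teNK, 2709 with library totals against 3665 in the main fit. No log2 fold change of a member changed sign, and calls changed only for *Creb1*, *Pde3b*, *Pde4a* and *Prkar1a*. The calls of *Pde4d*, *Pde4b*, *Pde7a*, *Adcy7* and *Ptger4* held under all 15; the log2 fold change ranged from -2.59 to -2.38 for *Pde4d* and from 0.51 to 0.71 for *Ptger4*. With library totals in place of TMM, where the median log2 fold change of all genes was -0.15 and not -0.02, 3 members were called higher and 4 lower. *Creb1* (0.077, adjusted p = 0.301) and *Pde4a* (0.17, adjusted p = 0.118) were not called there, and *Pde3b* (-0.27, adjusted p = 0.00321) and *Prkar1a* (-0.28, adjusted p = 0.00691) were. With upper quartile scaling *Pde3b* was called lower (-0.17, adjusted p = 0.0455). Over the libraries left out in turn, 2 to 4 members were called lower, 4 of them without hNK replicate 1; log2 fold changes ranged from -0.20 to -0.085 for *Pde3b* and from -0.21 to -0.081 for *Prkar1a*. The cause was not tested. Leaving out each library gave 3380 to 3766 genes higher and 3203 to 3497 lower. Replicate numbers are shared between groups, but deviations of same-numbered libraries correlated at only 0.045, -0.11, 0.15 and 0.018. Not every library correlated best with its own number. These values show no effect that same-numbered libraries share throughout, and they cannot tell whether libraries were collected in pairs. With a replicate block, 3581 genes were called higher and 3401 lower, and of the members 5 higher and 2 lower. The hNK libraries are the shallower, and a floor of 3 reads per library is 0.190 to 0.241 CPM in teNK and 0.238 to 0.542 CPM in hNK.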
